A study of Mus musculus with 4 samples.

Results

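Undifferentiated spermatogonia are the germ cells of the testis that include the spermatogonial stem cells and their early progeny. They were described here in 4 libraries of mouse testis made by single-cell RNA sequencing. The 1151 member cells were chosen by measured values, namely the counts of unique molecular identifiers (UMIs, each standing for 1 captured RNA molecule) of the marker genes Zbtb16, Nanos3, Egr4, Gfra1, Ret and Upp1. A member barcode had at least 500 detected genes, at most 20% mitochondrial UMIs, at least 2 UMIs of the germ cell genes Ddx4 and Dazl together, and at least 3 UMIs of the 6 markers together. It also had at most 4 UMIs of Stra8, at most 4 UMIs of Ldhc and Fabp9 together, and under 0.3% of its UMIs from the Sertoli cell genes Aard, Cst9 and Cldn11. Of 24851 deposited barcodes, 78 members came from the 2-day culture, 147 from the 7-day culture, 555 from testis at 9 days postpartum (dpp) and 371 from testis at 14 dpp. Barcodes that met the same limits without the marker minimum and without the Stra8, Ldhc and Fabp9 limits are called germ-gated cells, and they numbered 2893, 2558, 2635 and 3811.

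All mice were C57BL/6 and carried an Acr-Gfp transgene, a fluorescent reporter under the promoter of the acrosin gene, which is active in later germ cells, so every group shared it. For the cultures, testes of 7 dpp mice were cut into fragments and kept for 2 or 7 days on agarose under a ceiling chip of the silicone PDMS, partly submerged in α-MEM to which AlbuMAX was added. The libraries titled 9 and 14 dpp are taken here as testes that were not cultured, although the culture protocol stands in the labels of all 4 libraries, so the titles alone separate the groups. On that reading the age at collection plus the days in culture equals the in vivo age in each pair. Each group was 1 library, and the number of animals behind it was not given in the sources used here. There is no replicate error, no test between groups was possible, and each value compares libraries, not conditions. Intervals are 95% limits that cover counting error only. The label text on cell isolation speaks of female gonads, while the members had the germ cell pattern described below.

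As background, undifferentiated spermatogonia lie on the wall of the seminiferous tubule and either renew themselves or go on to differentiate in response to retinoic acid. Sertoli cells secrete GDNF, which binds the receptor GFRA1 together with its partner RET on these cells and keeps the stem cells in place. Progenitors on the way out express Neurog3, Nanos3, Upp1 and Rarg, and the switch to differentiation is marked by KIT, the receptor for stem cell factor.

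Where 4 values follow each other, they are given in the order 2-day culture, 7-day culture, 9 dpp and 14 dpp. Levels are CPM, the UMIs of a gene per 1000000 UMIs summed over the member cells of a library. The members held 430452, 2082082, 8740768 and 5045503 UMIs in all, with medians of 5092, 13037, 15355 and 13171 UMIs per cell, so values of the 2-day culture are the least precise. In summed cells, fewer cells that express a gene and less RNA of it per cell cannot be told apart. Between any 2 libraries 35 to 86 barcode sequences were shared, and 1 of them was a member in both the 2-day culture and the 14 dpp library.

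The members made up 2.70%, 5.75%, 21.1% and 9.74% of germ-gated cells. After each cell was thinned to 2000 UMIs the shares were 0.723%, 1.89%, 4.89% and 2.71%, from 16, 41, 107 and 91 cells. Both cultures thus held fewer members than the in vivo library of the matching age, and the 9 dpp library held the most. The log2 ratio of shares, 2-day culture over 9 dpp, was -2.97 (-3.30 to -2.63), and -2.76 after thinning. For the 7-day culture over 14 dpp it was -0.76 (-1.03 to -0.49), and -0.52 (-1.05 to 0.01) after thinning, an interval that includes 0. The 6 markers together reached 89.7, 117, 297 and 180 CPM in all germ-gated cells. The rule itself used these markers, so both the shares and this level describe the libraries and are not tested.

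**Figure D1:**
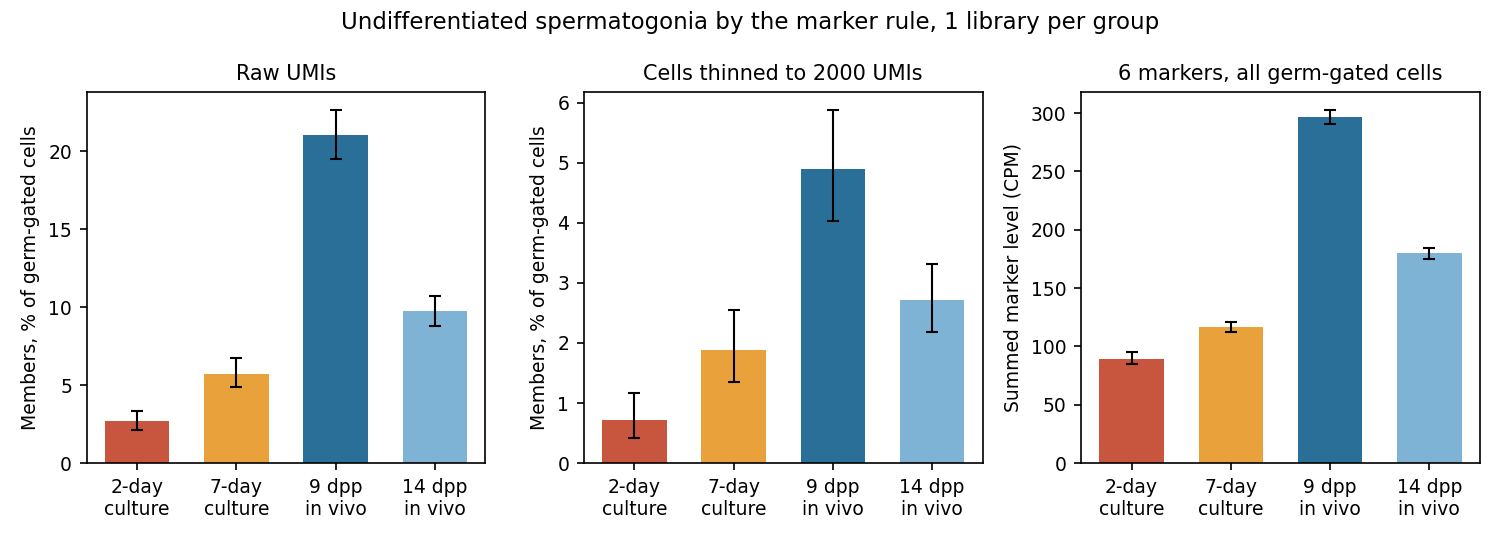
Share of germ-gated cells that were members (vertical axis, percent) in each of the 4 libraries, with exact 95% limits, for all UMIs and after thinning each cell to 2000 UMIs. Both cultures lie below the in vivo library of the same age, at 2.70% against 21.1% and at 5.75% against 9.74%.

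The limit of 3 marker UMIs passed through a continuous range of cells. In the 2-day culture 33 of the 78 members (42.3%) had exactly 3 marker UMIs, against 16 (10.9%), 46 (8.29%) and 44 (11.9%) in the other libraries. Just outside, 66, 19, 100 and 58 cells had 2 marker UMIs. Sall4, a transcription factor gene of spermatogonia that is outside the rule, stood at 53.6, 36.5, 35.6 and 33.4 CPM in cells with 2 marker UMIs and at 122, 84.4, 42.4 and 53.6 CPM in those with 3. Id4, a stem cell gene, stood at 34.9, 24.3, 21.4 and 28.1 CPM with 2 and at 46.6, 42.2, 59.7 and 49.7 CPM with 3. Kit stood at 13.4, 48.7, 51.3 and 43.9 CPM with 2 and at 5.82, 8.44, 30.8 and 31.8 CPM with 3. Uchl1, a gene of spermatogonia more widely, stood at 834, 834, 1006 and 896 CPM with 2 and at 746, 1182, 996 and 1170 CPM with 3, so it had no common step. Of 933, 360, 553 and 398 Sertoli-gated barcodes, 0, 1, 2 and 0 reached the minimum.

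The 6 markers did not contribute alike. Egr4, an early growth response transcription factor gene, gave 50.5%, 35.8%, 43.7% and 41.6% of all marker UMIs. Gfra1 gave 12.4%, 5.55%, 3.35% and 3.63%, and Ret gave 11.8%, 10.1%, 5.81% and 5.94%. These parts describe the rule's own markers and are set partly by the limit of 3 UMIs. Nanos3, an RNA-binding protein gene, gave 3.93%, 13.9%, 12.4% and 11.3%. Upp1, which encodes uridine phosphorylase, gave 4.53%, 12%, 15.1% and 14.9%, with its lowest part in the 2-day culture. Zbtb16, which encodes the transcription factor PLZF, gave 16.9%, 22.7%, 19.7% and 22.6%.

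Single members are described by the same markers, which chose them at their full depth, so these shares are no test. After thinning the chosen members to 2000 UMIs, cells with a UMI of Gfra1 or Ret but none of Nanos3 or Upp1 made up 29.5% (19.7% to 40.9%) of the 2-day members and 22.8% (16.2% to 30.5%) of the 7-day members. At 9 and 14 dpp they made up 11.2% (8.67% to 14.1%) and 10.3% (7.37% to 13.8%). Unthinned, the 4 shares were 42.3%, 13.6%, 16.04% and 15.4%, so the 7-day culture was above the in vivo libraries only after thinning. Cells with Nanos3 or Upp1 but neither receptor gene made up 7.69% (2.88% to 16%) of the 2-day members, 21.4% of the 7-day members, 28.1% at 9 dpp and 29.5% at 14 dpp. Unthinned, a Gfra1 UMI was found in 39.7%, 37.4%, 24.9% and 26.1% of members. In Sertoli-gated barcodes, which should lack the gene and had median depths of 2652, 6801, 9934 and 7134 UMIs, it was found in 0 of 933, 0 of 360, 2 of 553 and 0 of 398. By a floor of 3 cells, a count of 0 allows a share of up to 0.322%, 0.833% and 0.754% in these libraries, and the exact upper limits are 0.395%, 1.02% and 0.923%. These limits concern barcodes with a detected UMI, not all cells that might express the gene.

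Genes outside the rule showed what else the members shared. The members were compared with the other germ-gated cells of the same library, of which 1966, 1379, 1633 and 2235 had at least 3 UMIs of Kit, Dmrtb1 and Stra8 together and are called the Kit group. Since the rule chose the members inside the same cells, these values describe the selection. Of the 9638 genes with at least 100 member UMIs over the 4 libraries, 29% were higher in members in all 4 libraries and 29.6% were lower in all 4.

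Of 9 stem cell genes compared, 8 were higher in members in all 4 libraries. The median log2 ratio of CPM plus 1 over the list was 2.29, 2.65, 2.84 and 2.45. Id4, a transcription inhibitor gene of stem cells, stood at 76.7, 68.7, 82.6 and 52.9 CPM in members and at 6.43, 42.6, 9.06 and 26.1 CPM in the other germ-gated cells. The gap for Id4 was smaller in the 7-day culture and at 14 dpp, where the other cells had more of it. Etv5, a transcription factor gene that responds to GDNF and FGF, stood at 53.4, 33.6, 25.9 and 25.8 CPM in members and at 5.11, 1.89, 2.58 and 2.01 CPM in the others. Epcam, a cell adhesion gene, was the exception in the list, at 197, 183, 163 and 173 CPM in members and 252, 274, 353 and 347 CPM in the others.

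Of 12 differentiating spermatogonia genes, 6 were lower in members in all 4 libraries and 3 were higher in all 4, with medians of -0.71, -0.82, -0.76 and -1.21. The 3 higher genes were Ccnd2, Dnmt3a and Rhox10. Rhox10, a homeobox gene, stood at 92.9, 117, 112 and 103 CPM in members and at 31.5, 15.8, 44.7 and 26.9 CPM in the other germ-gated cells. All 14 early prophase genes were lower in members in all 4 libraries. Kit stood at 9.29, 10.1, 8.47 and 6.74 CPM in members and at 37.2, 22.5, 48.3 and 37.9 CPM in the other germ-gated cells. Dmrtb1, a transcription factor gene that controls entry into meiosis, stood at 9.29, 9.13, 12.7 and 16.6 CPM in members and 22.8, 90.2, 94.4 and 104 CPM in the others. Sall4 was higher in members of every library, at 109, 76.8, 75.7 and 73.1 CPM against 33.5, 12.5, 40.2 and 24.7 CPM. Undifferentiated spermatogonia are known as Sall4-high and Kit-low cells, and both genes had that direction in every library. Sall4 stands in the broad spermatogonia list, where 6 of 14 genes were higher and 6 lower in members in all 4 libraries. The medians of that list were -0.15, 0.21, -0.17 and 0.09. Epcam and the 3 higher genes of the differentiating list had the direction opposite to their lists.

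**Figure D2:**
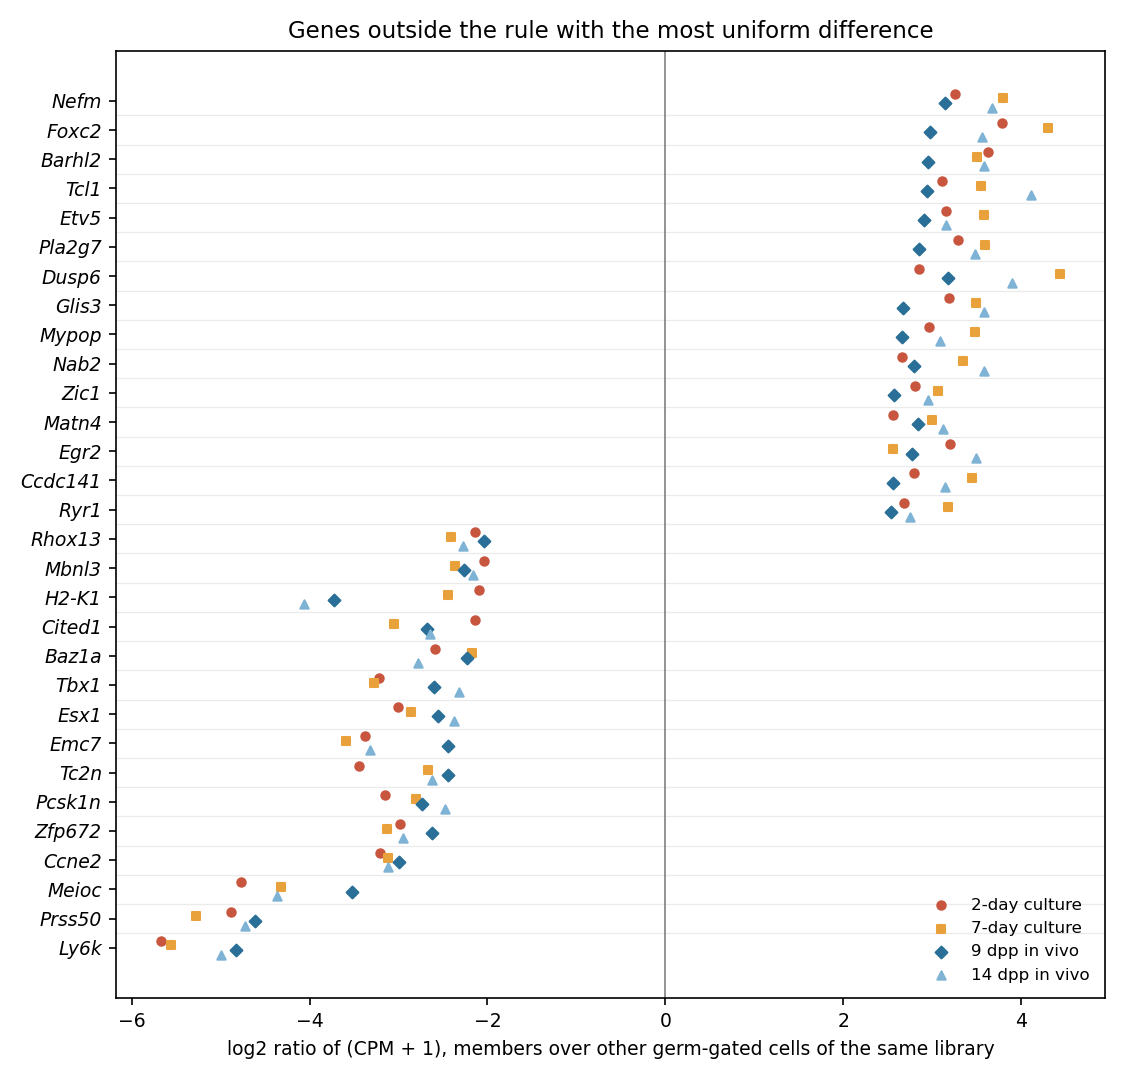
Log2 ratio of CPM plus 1, members over the other germ-gated cells of the same library, for the 15 genes outside the rule with the highest and the 15 with the lowest ratios, 1 point for each library. All points of the upper set lie at 2.54 or above and all points of the lower set at -2.04 or below.

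The 15 genes outside the rule with the highest ratios, ranked by their smallest ratio over the libraries, were Nefm, Foxc2, Barhl2, Tcl1, Etv5, Pla2g7, Dusp6, Glis3, Mypop, Nab2, Zic1, Matn4, Egr2, Ccdc141 and Ryr1. Nefm, a neurofilament gene, stood at 25.6, 27.9, 25.4 and 33.9 CPM in members and at 1.78, 1.07, 1.99 and 1.74 CPM in the other germ-gated cells. Foxc2, a forkhead transcription factor gene, stood at 53.4, 39.9, 30.0 and 32.9 CPM against 2.94, 1.07, 2.92 and 1.87 CPM. Dusp6, a phosphatase gene that is switched on by and limits ERK signalling, stood at 79.0, 68.2, 63.7 and 75.7 CPM against 10.1, 2.20, 6.14 and 4.14 CPM. Nab2, which encodes a corepressor of the EGR factors, and Egr2, a relative of the marker Egr4, were in the same set. Nab2 stood at 65.0, 87.9, 84.9 and 99.1 CPM against 9.45, 7.76, 11.4 and 7.33 CPM.

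The 15 lowest were Ly6k, Prss50, Meioc, Ccne2, Zfp672, Pcsk1n, Tc2n, Emc7, Esx1, Tbx1, Baz1a, Cited1, H2-K1, Mbnl3 and Rhox13. Prss50, a protease gene of germ cells about to enter meiosis, stood at 11.6, 10.6, 9.50 and 13.9 CPM in members and at 370, 449, 256 and 392 CPM in the other germ-gated cells. Meioc, needed for the meiotic program to hold, stood at 2.32, 9.61, 7.89 and 7.93 CPM against 90.1, 210, 102 and 183 CPM. H2-K1, a classical MHC class I gene, was also lower in members, at 60.4, 51.4, 7.89 and 13.5 CPM against 261, 285, 116 and 241 CPM. The MHC class I list as a whole was not, since 5 of its 8 genes were higher in members in all 4 libraries and 2 were lower (medians 0.86, 1.81, 0.82 and 1.29). The 5 were the proteasome genes Psmb9, Psmb10, Psme1 and Psme2 and the peptide loading gene Tapbp, and the 2 were H2-K1 and H2-D1.

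At equal depth, cell cycle transcripts were found in fewer members than Kit group cells, least clearly for S phase in the 2-day culture. After thinning, at least 3 UMIs of 20 G2 and M phase genes were found in 55.1%, 53.1%, 50.3% and 52.7% of members. In the Kit group the shares were 83.4%, 84.7%, 80.9% and 81.4%. For 20 S phase genes the members' shares were 84.6% (74.7% to 91.8%), 69.7% (61.5% to 77.0%), 60.2% (56.0% to 64.3%) and 55.9% (50.7% to 61.1%). The Kit group had 89.3%, 86.4%, 90.2% and 87.6%, and Sertoli-gated barcodes at the same 2000 UMIs had 12.1%, 7.62%, 13.4% and 3.00%. The S phase share was highest in the 2-day members, and its interval included the share of the Kit group there. The G2 and M phase share of the 2-day members was close to that of the other members. Unthinned, 84.6%, 95.2%, 96.9% and 96.0% of members reached 3 UMIs of the G2 and M phase genes, and 97.4%, 99.3%, 99.5% and 99.2% those of S phase. Thinning left out 0, 2, 0 and 1 members with fewer UMIs, and 1853, 1365, 1618 and 2216 Kit group cells remained.

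The members also varied among themselves along the GDNF receptor. A Gfra1 UMI was present in 31 of 78, 55 of 147, 138 of 555 and 97 of 371 members. The cells with it were shallower in 3 libraries and about as deep in the 7-day culture, with medians of 4545, 13037, 13762 and 12387 UMIs against 5803, 12974, 16271 and 13210 without. The rule makes the other 5 markers trade off against Gfra1, so only genes outside it were read. Over all 9638 genes, 11.1% were higher with Gfra1 in all 4 libraries and 10.5% were lower in all 4.

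All 9 stem cell genes compared (Id4, Etv5, Bcl6b, Nanos2, Tspan8, Tcl1, Cd9, Epcam and Mcam) were higher in the members with a Gfra1 UMI in all 4 libraries. Etv5 stood at 80.7, 48.0, 66.8 and 53 CPM with Gfra1 and at 39.1, 24, 14.0 and 16.3 CPM without. Id4 stood at 101, 73.2, 153 and 99.9 CPM with and 63.9, 65.7, 62.2 and 36.6 CPM without, a gap that was smallest in the 7-day culture. Ccnd2, a cyclin gene that acts downstream of GDNF, differed little in the cultures, at 484 and 275 CPM with Gfra1 against 422 and 236 CPM without. In vivo Ccnd2 stood at 480 and 500 CPM with against 108 and 189 CPM without. Of 16 GDNF and FGF signalling genes, 7 were higher in all 4 libraries and 0 were lower in all 4. Outside the lists, Plvap, a gene better known from endothelium, had the largest smallest ratio, at 47.0, 22.8, 20.9 and 24.6 CPM with and 7.10, 4.80, 4.28 and 2.94 CPM without.

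Part of the progenitor genes ran the other way. Of 8 compared, 4 were lower with Gfra1 in all 4 libraries (Neurog3, Rarg, Sohlh1 and Ddit4) and 0 were higher in all 4. Neurog3, a transcription factor gene of progenitors, stood at 12, 12.8 and 10.8 CPM with Gfra1 in the 3 libraries other than the 2-day culture, against 28.0, 40.7 and 36.3 CPM without. Rarg, which encodes the retinoic acid receptor that lets progenitors respond, stood at 8.40, 10.2 and 9.99 CPM against 19.2, 28.5 and 26.4 CPM in those libraries. In the 2-day members with Gfra1, Neurog3 and Rarg had 0 UMIs. Sox4 was higher with Gfra1 in 3 of the 4 libraries, with log2 ratios of -0.32, 0.26, 0.50 and 0.44. Sox3 and Lin28a were higher with Gfra1 in the 2-day culture, at 0.83 and 0.42 from few UMIs, and lower in the other libraries. Foxo1 lay between -0.43 and 0.04.

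The culture pairs were then compared gene by gene in summed members. A gene counts as past the fold when its log2 ratio of CPM plus 1 was at least 1 or at most -1. Between the 2-day culture and 9 dpp (the 2-day pair, culture over in vivo), 3.17% of the 9638 genes were higher past the fold (306 genes) and 8.28% were lower (798 genes). Between the 7-day culture and 14 dpp (the 7-day pair) these were 1.47% (142) and 1.59% (153). Intervals off 0 as well were found for 199 and 262 of these genes for the 2-day pair and for 136 and 115 for the 7-day pair, so most of the surplus of lower genes after 2 days lay within counting error. A limit on the second count is that a few members carried RNA of other cell types, as described further on. Without them, 3.13% and 8.47% of 9400 genes were past the fold for the 2-day pair and 0.691% (65 genes) and 1.53% (144 genes) for the 7-day pair. In the 2-day members 125 of the compared genes had 0 UMIs, which bears on the count of lower genes. The higher genes of both pairs shared 43 (14.1% of the 2-day set and 30.3% of the 7-day set), and the lower genes shared 86 (10.8% and 56.2%).

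Stem cell genes stayed close to the in vivo level as a list. Of 9, 2 were higher and 1 was lower past the fold for the 2-day pair (median -0.08), and 0 were past it for the 7-day pair (median -0.01), beside medians of -0.0044 and 0.012 over all genes. Etv5 stood at 53.4 CPM after 2 days of culture against 25.9 CPM at 9 dpp, a log2 ratio of 1.02 (0.20 to 1.78). After 7 days Etv5 had 33.6 CPM against 25.8 CPM at 14 dpp, with an interval that includes 0. With a minimum of 2 or 5 marker UMIs the 2-day ratio of Etv5 was 0.86 or 0.81, under the fold. Bcl6b, a transcription factor gene that responds to GDNF, stood at 27.9, 13.9, 11.6 and 14.7 CPM, a 2-day pair log2 ratio of 1.20 (0.03 to 2.25). Tspan8, a tetraspanin gene of the stem cell surface, was the lower one, at 9.29, 12, 22.0 and 22.6 CPM, and its interval of -2.90 to 0.31 includes 0. Nanos2, needed to keep the stem cells, stood at 4.65, 8.65, 8.58 and 8.72 CPM, from 2 UMIs in the 2-day culture. Id4 had ratios of -0.11 and 0.37, and Tcl1, Cd9, Epcam and Mcam had ratios between -0.42 and 0.27 in both pairs.

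Some progenitor genes were lower in the 2-day culture. Of 8, 4 were lower past the fold, 2 of them with an interval below 0, and 0 were higher (median -0.78), while for the 7-day pair 1 was lower (median -0.16). Without the members carrying other RNA, 3 of 8 were lower for the 2-day pair (median -0.75). Neurog3 stood at 2.32 CPM in the 2-day culture, from 1 UMI, and at 21.6, 34.4 and 29.7 CPM in the other libraries. Its log2 ratio was -3.41 (-5.22 to -1.18) for the 2-day pair and -0.44 (-1.10 to 0.19) for the 7-day pair. In the other germ-gated cells Neurog3 stood at 5.04, 1.69, 7.36 and 3.98 CPM. At the depth of the 2-day members, 1 UMI does not show whether they exceeded the other cells there.

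Ddit4, a stress-responsive inhibitor of mTOR signalling, was lower in both cultures, at 16.3, 43.7, 175 and 138 CPM. Its log2 ratios were -3.35 (-4.62 to -2.28) and -1.64 (-2.05 to -1.24), and the intervals of the cultures and of the in vivo libraries do not overlap. Sox3, a transcription factor gene of progenitors, stood at 9.29, 20.2, 24.5 and 21.0 CPM, and Rarg at 11.6, 14.9, 24.4 and 22.2 CPM. The intervals of Sox3 and Rarg include 0 in both pairs. Lin28a, an RNA-binding protein gene, stood at 27.9, 62.4, 41.2 and 50.3 CPM, and Sohlh1, a transcription factor gene, stayed between 245 and 305 CPM. Foxo1 and Sox4, both transcription factor genes, had ratios of -0.18 and -0.38 for the 2-day pair and 0.00 and -0.09 for the 7-day pair.

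**Figure D3:**
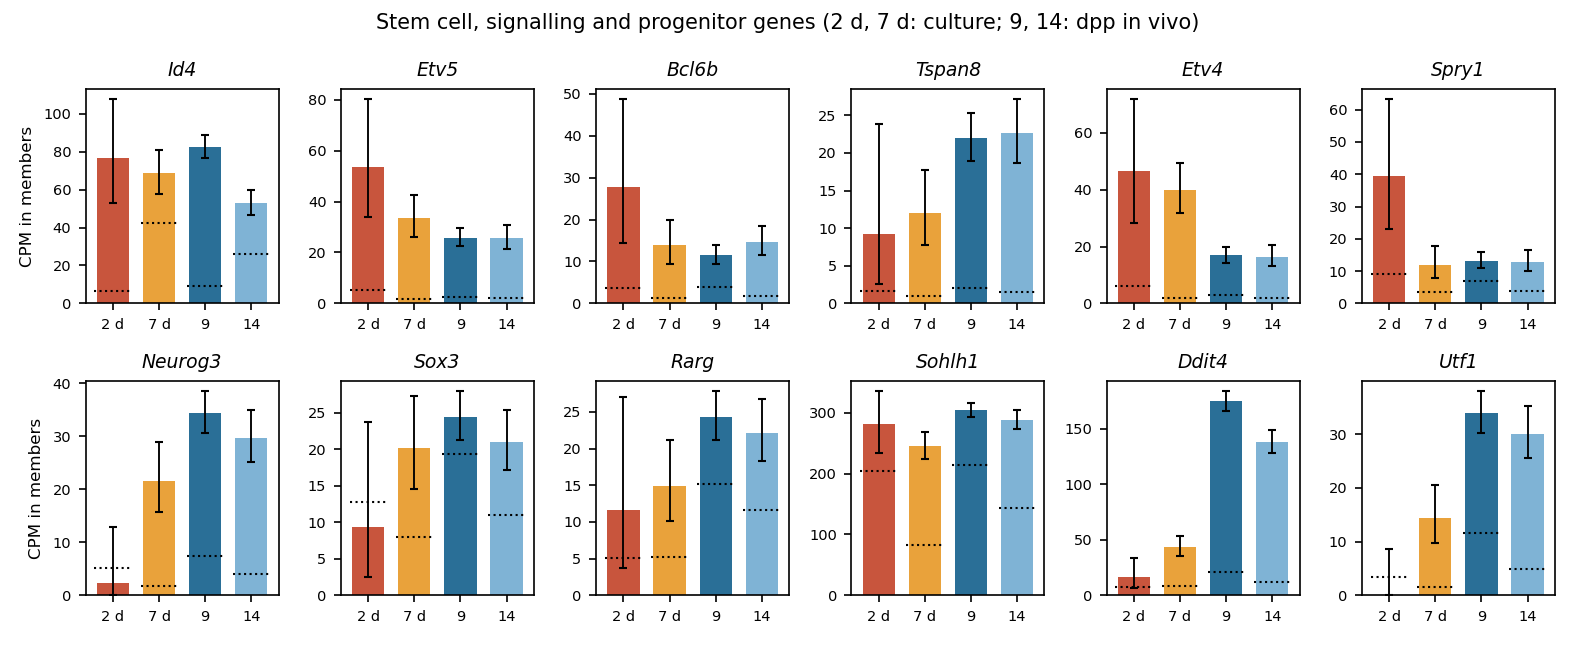
CPM in summed members (vertical axes) for stem cell and progenitor genes in the 4 libraries, as bars with exact 95% limits, with dotted lines for the CPM of the other germ-gated cells of the same library. Neurog3 and Ddit4 are lowest in the 2-day culture, at 2.32 and 16.3 CPM, and Etv5 is highest there, at 53.4 CPM.

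A pair of pluripotency-associated genes had 0 UMIs in the 2-day members. Utf1, a chromatin factor gene of undifferentiated spermatogonia, stood at 0, 14.4, 34.0 and 30.1 CPM. Against a floor of 3 UMIs per library, Utf1 was at least 4.88-fold lower in the 2-day culture than at 9 dpp, and its log2 ratio for the 7-day pair was -1.01 (-1.76 to -0.30), and -0.94, under the fold, without the members carrying other RNA. Dppa3, a gene that protects DNA methylation in early embryos, stood at 0, 10.6, 40.4 and 35.9 CPM. It was at least 5.79-fold lower in the 2-day culture, with a 7-day pair log2 ratio of -1.67 (-2.48 to -0.91). Foxf1, a forkhead transcription factor gene, stood at 16.3, 79.7, 100 and 116 CPM.

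Some targets of GDNF and FGF signalling were higher in the 2-day members. Of 16 genes, 5 were higher past the fold and 0 were lower for the 2-day pair (median 0.31), and 1 was higher for the 7-day pair (median 0.23). Without the members carrying other RNA, 5 were higher and 1 was lower for the 2-day pair (median 0.31). The 5 were Etv4, Etv5, Bcl6b, Spry1 and Ccnd2. All 5 were also higher in members with a Gfra1 UMI in all 4 libraries. Such members were 31 of 78 in the 2-day culture and 138 of 555 at 9 dpp. Since the rule counts Gfra1 and Ret, these ratios are tied to how the members were chosen, and the size of that part was not tested. Etv4, a transcription factor gene related to Etv5, was higher in both pairs, at 46.5, 39.9, 16.9 and 16.4 CPM. Its log2 ratios were 1.40 (0.49 to 2.25) and 1.23 (0.61 to 1.84). Spry1, an inhibitor gene of receptor tyrosine kinase signalling, stood at 39.5 CPM in the 2-day culture and at 12, 13.2 and 12.9 CPM elsewhere. Ccnd2 stood at 444, 252, 192 and 269 CPM, with a 2-day pair log2 ratio of 1.21 (0.93 to 1.48). Dusp6, at 79.0, 68.2, 63.7 and 75.7 CPM, did not differ beyond its counting error in either pair.

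Among broader spermatogonial genes, 2 of 14 were higher and 1 was lower for the 2-day pair (median -0.13), and 1 was higher and 1 lower for the 7-day pair (median -0.02). Itga6, an integrin gene used to sort stem cells, was higher in both pairs, at 44.1, 43.2, 16.9 and 20.02 CPM. Its log2 ratios were 1.33 (0.40 to 2.19) and 1.07 (0.50 to 1.65), the second falling to 0.94 without the members carrying other RNA. Tex15, a gene of transposon silencing, stood at 190, 190, 91.6 and 184 CPM, so only the 9 dpp library was low.

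Differentiating spermatogonia genes differed in both directions for the 2-day pair. Of 12, 2 were higher and 1 was lower (median -0.14), beside 3.17% and 8.28% of all genes. Intervals lay above 0 for 3 and below 0 for 2. For the 7-day pair 0 were past the fold (median -0.07). The summed log2 ratio of the list was 0.30 (0.18 to 0.42) for the 2-day pair and -0.09 (-0.16 to -0.02) for the 7-day pair. The higher genes were Ccnd2 and Sohlh2. The lower one was Esx1, at 18.6, 33.6, 46.4 and 44.4 CPM. Sohlh2, a transcription factor gene of early differentiation, stood at 121 CPM in the 2-day culture and at 60.0, 56.5 and 56.1 CPM elsewhere, and its 2-day ratio of 1.08 went to 0.20 with a minimum of 5 marker UMIs. Kit, at 9.29, 10.1, 8.47 and 6.74 CPM, and Dnmt3b, a DNA methyltransferase gene, at 88.3, 69.6, 88.6 and 71.4 CPM, stayed close between cultures and in vivo.

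Of 11 retinoic acid genes, 1 was higher and 4 were lower past the fold for the 2-day pair, with a gene at 0 UMIs set to its floor (median -0.47), and 0 were higher and 1 was lower for the 7-day pair (median -0.59). Without the members carrying other RNA, 1 of 9 was higher and 1 was lower for the 2-day pair (median -0.35). The 4 were Rarg, Rec8, Aldh1a1 and Cyp26b1, at 1 to 5 UMIs in the 2-day culture, and all their intervals include 0 in that pair. Aldh1a1, a retinoic acid synthesis gene, stood at 4.65, 5.28, 10.3 and 20.4 CPM, with a 7-day ratio of -1.77 (-2.82 to -0.76). Its 2-day ratio turned to 0.79 with a minimum of 2 marker UMIs.

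A few genes of early meiosis were higher in the 2-day members. Of 14 early prophase genes compared, 11 were above 0, 2 were higher past the fold and 2 lower (median 0.13), and 0 were past the fold for the 7-day pair (median 0.14). Summed over the 17 genes of the list, the level was 2381, 1860, 1487 and 1592 CPM, with a log2 ratio of 0.68 (0.59 to 0.77) between the 2-day culture and 9 dpp. Smc1b alone made up a large part of that sum. Smc1b, a cohesin gene used in meiosis, stood at 618, 372, 224 and 266 CPM, a 2-day pair log2 ratio of 1.46 (1.22 to 1.70) and 0.49 (0.31 to 0.66) for the 7-day pair. Dmc1, a recombinase gene, stood at 44.1, 26.4, 15.2 and 18.0 CPM, with a log2 ratio of 1.48 (0.53 to 2.35). Both stayed below the other germ-gated cells, which had 864, 932, 548 and 878 CPM of Smc1b and 125, 135, 74.6 and 102 CPM of Dmc1. Meioc and Rec8 were the lower genes, each from 1 UMI in the 2-day culture, and their intervals include 0. With a minimum of 2 marker UMIs they turned to 0.53 and 0.61, while Smc1b and Dmc1 stayed past the fold, at 1.34 and 1.11.

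Some DNA replication genes were higher in the 2-day members. Of 20 S phase genes, 4 were higher past the fold, 9 had an interval above 0, 18 were above 0 and the median was 0.52, while for the 7-day pair 0 were past the fold (median 0.07). Together they reached 2672 CPM in the 2-day culture and 1855, 1796 and 1816 CPM in the other libraries. Chaf1b, a subunit gene of the complex that loads histones on new DNA, stood at 86.0, 42.7, 29.6 and 28.3 CPM, with a log2 ratio of 1.51 (0.84 to 2.14). Cdc6, which helps to load the replicative helicase, stood at 41.8, 22.1, 17.0 and 20.6 CPM, with a ratio of 1.25 (0.30 to 2.12). Cdc45 stood at 125, 78.8, 60.3 and 69.8 CPM, and Rrm2, a ribonucleotide reductase gene, at 69.7, 36.5, 34.2 and 34.9 CPM. Rrm2 turned to -1.10 with a minimum of 5 marker UMIs. The G2 and M phase list had 0 genes higher and 1 lower of 20 for the 2-day pair (median 0.03), and Hmgb2, a chromatin protein gene of dividing cells, stood at 1759, 1150, 879 and 896 CPM.

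The promoters of these replication genes are shown because 18 of the 20 genes were above 0 for the 2-day pair and the set is a textbook target of E2F factors. Windows from 250 bases before to 50 bases after the gene start, from RefSeq on GRCm38.p6, were found for 16 of the 20 S phase genes. The letters TTTCCCGC or TTTGGCGC, searched on both strands, were in 6 of the 16 (37.5%: Cdc6, Cdt1, Mcm3, Mcm5, Mcm6 and Mcm7), against 1.80% of 27025 genes with a window. Of the 4 S phase genes past the fold for the 2-day pair, Cdc6 was among these 6, and Chaf1b, Cdc45 and Rrm2 were not. Mcm6, a helicase subunit gene, had the motif at a pair of places, with 265, 186, 161 and 168 CPM in members. A match describes letters in the window and is not a measured site. For comparison, the EGR factor letters GCGTGGGCG or GCGGGGGCG, searched the same way, were in 0 of the 13 matched promoters of the 15 genes highest in members and in 3.93% of all genes. In the 12 matched promoters of the 15 genes lowest in members, the EGR letters were in 2 (16.7%) and the E2F letters in 2 (16.7%). Among the 16 S phase genes the EGR letters were in 1 (6.25%), which was Chaf1b. The windows of Cdc6 (chr11:98907901-98908200, plus strand) and Mcm6 (chr1:128359656-128359955, minus strand) follow, 5′ to 3′ in the direction of the gene, with the matches in capitals (in Cdc6 the match is on the opposite strand).
Cdc6 promoter: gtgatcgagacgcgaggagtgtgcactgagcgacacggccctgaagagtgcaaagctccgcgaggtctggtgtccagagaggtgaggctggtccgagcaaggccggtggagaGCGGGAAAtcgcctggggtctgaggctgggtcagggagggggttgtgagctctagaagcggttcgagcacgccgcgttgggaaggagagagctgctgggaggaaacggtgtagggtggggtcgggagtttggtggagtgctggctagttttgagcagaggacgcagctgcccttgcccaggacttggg
Mcm6 promoter: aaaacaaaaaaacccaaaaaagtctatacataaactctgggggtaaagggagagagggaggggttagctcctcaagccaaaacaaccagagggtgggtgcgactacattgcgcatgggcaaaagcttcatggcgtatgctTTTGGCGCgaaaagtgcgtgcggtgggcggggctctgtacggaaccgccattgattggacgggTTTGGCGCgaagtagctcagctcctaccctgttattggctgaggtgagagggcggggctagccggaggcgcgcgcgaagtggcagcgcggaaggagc

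Some cholesterol synthesis genes were higher in the 2-day members as well. All 19 compared were above 0, 7 of them with an interval above 0 and 5 past the fold (median 0.37), while for the 7-day pair 0 were past the fold (median -0.02). Insig1, a sterol-sensing regulator gene, stood at 186 CPM in the 2-day culture and at 70.1, 70.5 and 57.7 CPM elsewhere, a log2 ratio of 1.39 (0.94 to 1.82). Msmo1, an enzyme gene of sterol synthesis, stood at 204 CPM in the 2-day culture and at 80.2, 84.2 and 63.6 CPM elsewhere, with a ratio of 1.27 (0.85 to 1.67). The other germ-gated cells had 128, 45.4, 77.2 and 45.9 CPM of Insig1, so there too the 2-day culture was the highest library.

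Several genes lower in both cultures were on none of the lists. AC160336.1, a long intergenic noncoding RNA at chr14:44544055-44637201 on the minus strand (GRCm38, GENCODE M21), stood at 167, 244, 1522 and 1104 CPM. Its log2 ratios were -3.18 (-3.55 to -2.82) and -2.17 (-2.34 to -2.01). Loxl2, a lysyl oxidase gene, stood at 18.6, 25.9, 282 and 149 CPM. Il11, an interleukin gene, stood at 25.6, 25.9, 233 and 109 CPM. Tmem267, a membrane protein gene, stood at 9.29, 38.9, 236 and 129 CPM, and P3h3, a prolyl hydroxylase gene, at 11.6, 16.3, 119 and 93.2 CPM. Bc1, a small noncoding RNA gene, stood at 11.6, 8.16, 99.5 and 44.4 CPM.

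In the other germ-gated cells, where the first 3 of these genes were lower in both cultures as well, AC160336.1 stood at 221, 205, 2116 and 1276 CPM, Loxl2 at 55.8, 40.6, 409 and 171 CPM, and Il11 at 17.5, 16, 301 and 129 CPM. Cdkn2a, the gene of a cell cycle inhibitor and p53 activator, was lower in both cultures too, at 23.2, 13.9, 110 and 176 CPM in members and 21.9, 14.7, 141 and 204 CPM in the other germ-gated cells. Its log2 ratios in members were -2.20 (-3.28 to -1.25) and -3.57 (-4.19 to -2.98). Other genes named by the same rule as lower were Lepr, Ptcra and Snhg9 for the 2-day pair and Spata7, Ighm, Zfp979 and Zfp984 for the 7-day pair.

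**Figure D4:**
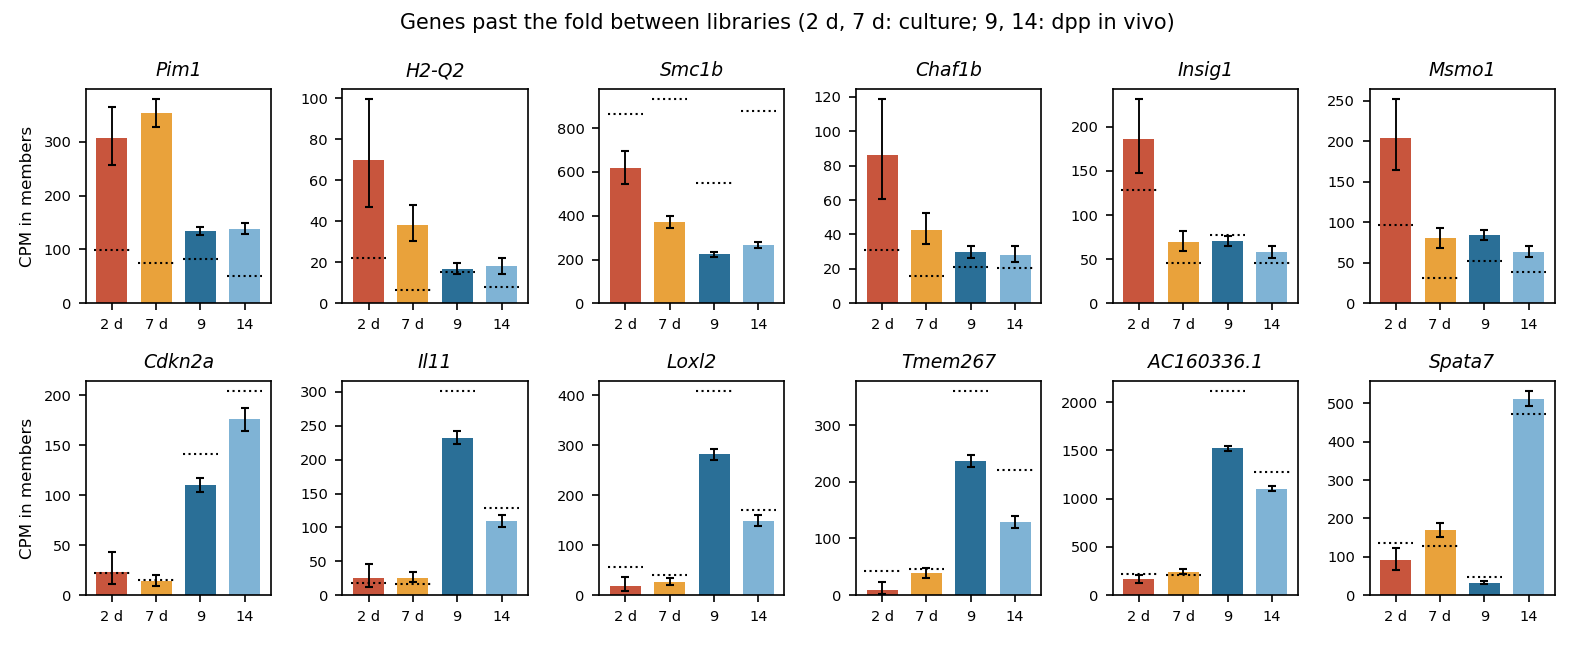
CPM in summed members (vertical axes) of genes that differed between cultures and in vivo libraries, as bars with exact 95% limits, with dotted lines for the other germ-gated cells of the same library. AC160336.1, Loxl2, Il11 and Cdkn2a are lower in both cultures in members and in other germ cells alike.

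The rule for naming genes took the largest ratios by the bound nearest 0. For the 2-day pair it gave Smc1b, H2-Q2, Derl3, Cpne5, Insig1, Ccnd2, Atad5, Hmgb2, Pim1, Msmo1, Aldoc and Chaf1b as higher. Derl3, a protein degradation gene of the endoplasmic reticulum, stood at 65.0, 30.7, 17.8 and 27.7 CPM. Aldoc, an aldolase gene, stood at 177, 81.6, 71.2 and 81.9 CPM, and Atad5, a gene that unloads the replication clamp, at 53.4, 25.0, 15.3 and 21.2 CPM. For the 7-day pair it gave Pgf, Tpm3-rs7, Tnfaip8l1, Pim1, Egfl7, Triml2, Kctd6, Etv4, Bik, Gal, Krt17 and Itga6. Of these, Tpm3-rs7 had ratios of -0.15 and 3.70 and Kctd6 of 0.44 and 1.40, both with a low 14 dpp library.

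Among genes higher in both cultures, Pim1, a kinase gene that cytokine receptors induce, stood at 307, 352, 134 and 138 CPM. Its log2 ratios were 1.19 (0.85 to 1.52) and 1.34 (1.13 to 1.56), and the other germ-gated cells had 98.9, 74.6, 82.8 and 51.0 CPM. H2-Q2, a nonclassical MHC class I gene, stood at 69.7, 38.4, 16.8 and 18.0 CPM, with ratios of 1.99 (1.21 to 2.72) and 1.05 (0.44 to 1.65), while barcodes without germ cell UMIs had at most 0.423 CPM. Reads of MHC class I genes can be shared between near-identical copies, so the assignment to H2-Q2 is uncertain. Triml2 stood at 44.1, 32.2, 14.5 and 10.9 CPM, and Bik, a cell death gene, at 72.0, 78.8, 34.7 and 38.1 CPM. Without the members carrying other RNA, Pim1, H2-Q2, Triml2 and Bik were still past the fold in both pairs. With a minimum of 5 marker UMIs, Bik turned to -0.084 for the 2-day pair. With each cell thinned before the rule, Pim1 had ratios of 0.39 and 0.73, under the fold.

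A few members carried RNA of other cell types. Marker genes of stroma, myoid, Leydig, macrophage and endothelial cells together made up at least 0.1% of the UMIs in 4, 5, 25 and 11 members, a limit chosen after seeing the data. These barcodes held 71.7%, 78.3%, 72.8% and 56.1% of all such UMIs in members, and 2, 2, 23 and 9 of them were called doublets (barcodes with more than 1 cell) by Scrublet. In members as a whole the 9 stroma markers stood at 546, 311, 201 and 99.3 CPM, against 4983 to 11743 CPM in barcodes without germ cell UMIs. They were thus higher in both cultures, with summed log2 ratios of 1.44 (1.25 to 1.64) and 1.65 (1.48 to 1.81), and 4 of the 7 compared were past the fold in each pair. Without the members carrying other RNA, the markers of all 5 cell types together stood at 223, 116, 124 and 108 CPM, against 723, 499, 430 and 239 CPM with them. The 7 myoid markers ranged from 29.3 to 173 CPM, the 7 Leydig markers from 12 to 36.7 CPM and the 9 macrophage markers from 7.68 to 13.9 CPM. Csf1r and Adgre1 had 0 UMIs in members of all 4 libraries, and Cyp17a1 and Insl3 had 0 in both cultures. The 12 Sertoli markers ranged from 1131 to 1700 CPM, most of it Tmsb10 and Ctsl, and Sox9, Wt1, Amhr2 and Gata1 had 0 UMIs in the 2-day members.

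The 7 endothelial markers stood at 6.97, 139, 6.52 and 6.74 CPM. In the 7-day culture 281 of 289 endothelial UMIs came from 1 barcode of 86042 UMIs, the deepest member of that library, which had 27 marker UMIs, only 2 UMIs of Ddx4 and Dazl, the minimum of the rule, and was not called a doublet. The same barcode held 2494 of 2569 UMIs of Tmsb4x, 739 of 761 of Vim and 143 of 154 of Pgf in the 7-day members. Pgf, a placental growth factor gene and the first named higher gene of the 7-day pair, went from 4.39 to 0.87 when the members carrying other RNA were left out. Egfl7 went from 1.32 to 0.10, Tnfaip8l1 from 2.39 to 1.34 and Gal from 1.59 to 0.28, while Krt17 went from 1.61 to 1.67.

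The title of the series speaks of an inflammatory response, and in members some inflammation genes were higher in culture, as the stroma markers were. The part of stroma RNA in this was not tested beyond leaving out the carrying members and subtracting free RNA. Of 11, 7 were higher past the fold for the 2-day pair (median 1.43) and 6 for the 7-day pair (median 1.16), and 0 were lower. Without the members carrying other RNA, 3 of 9 were higher in each pair (medians 0.91 and 0.73). Saa3, an acute phase protein gene, stood at 813, 52.4, 1.03 and 0.198 CPM in members, and at 18075, 1545, 0.669 and 0.842 CPM in barcodes without germ cell UMIs. In the 2-day culture 1 member of 11372 UMIs held 226 of its 350 UMIs. The log2 ratios of Saa3 were 8.65 (7.95 to 9.26) and, against 1 UMI at 14 dpp, 5.48 (4.39 to 6.00), then 7.01 and 2.86 without the carrying members, and -0.98 and -0.24 when an estimate of free RNA was subtracted as well.

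Other inflammation genes behaved unalike. Ccl2, a chemokine gene, stood at 32.5, 93.2, 0.114 and 0 CPM, and its log2 ratio for the 2-day pair went from 4.91 (3.52 to 5.79), against 1 UMI at 9 dpp, to 3.61 without the carrying members. Against the floor at 14 dpp, Ccl2 was at least 157-fold higher in the 7-day culture. There 183 of its 194 UMIs came from the endothelial marker-rich barcode, and 2.06 CPM were left without the carrying members. Hp, which encodes haptoglobin, stood at 32.5, 45.1, 0.458 and 0 CPM, and its ratio for the 2-day pair went from 4.52 to 4.13 without the carrying members. With free RNA subtracted from all members the 2-day ratio of Hp turned to -0.58, and it was 3.03 with both steps, where the free RNA estimate was smaller. For Ccl2 these were 0 and -0.12. Hp was at least 75.9-fold higher in the 7-day culture than the floor at 14 dpp, and it had 0 UMIs in both libraries without the carrying members. Nfkbia, an inhibitor gene of NF-κB, stood at 37.2, 53.3, 13.2 and 23.4 CPM. Socs3, a feedback inhibitor gene of cytokine signalling, stood at 32.5, 12, 6.06 and 6.54 CPM, with a ratio of 2.25 for the 2-day pair and 1.75 without the carrying members. Cebpb, a transcription factor gene, stood at 48.8, 25.0, 27.6 and 6.14 CPM, with a ratio of 1.86 for the 7-day pair and 1.91 without them.

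Of 8 MHC class I genes, 3 were higher and 0 lower in each pair (medians 0.39 and 0.44). Without the carrying members, 2 were higher for the 2-day pair (median 0.34) and 0 for the 7-day pair (median 0.27). H2-D1, a classical class I gene, stood at 135, 110, 11.4 and 18.6 CPM, and its ratios of 3.45 and 2.51 went to 2.68 and 0.69. For H2-K1 the ratios of 2.79 and 1.86 went to 2.31 and 0.36, and for B2m, the light chain gene, 1.58 and 1.27 went to 0.80 and 0.13. Barcodes without germ cell UMIs had 1907, 813, 54.1 and 148 CPM of H2-D1, more than the members in every library. When a free RNA estimate was subtracted from all members, the 2-day ratios of H2-K1 and B2m were -0.30 and -0.55. With the carrying members left out as well, which lowers that estimate, they were 1.66 and 0.03.

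Interferon response genes had no common direction. Of 14, 3 were higher and 3 lower for the 2-day pair (median 0.65) and 1 was higher for the 7-day pair (median 0.21). Without the carrying members, 2 of 12 were higher and 4 lower (median -0.33) for the 2-day pair, with a gene at 0 UMIs set to its floor. That gene was Isg15, an interferon-induced gene with a 2-day ratio of 1.50 over all members. All its 10 UMIs in the 2-day culture lay in carrying members, and the 7.30 CPM left at 9 dpp were too few for a direction at the depth of the 2-day culture. Irgm1, an immunity GTPase gene, was lower, at 4.65, 11, 31.7 and 17.8 CPM, from 2 UMIs in the 2-day culture. Of 14 immediate early genes, 2 were higher in each pair (medians 0.50 and 0.42), and without the carrying members 4 were higher and 1 lower for the 2-day pair and 0 were past the fold for the 7-day pair. Junb, a transcription factor gene, stood at 58.1, 37.9, 18.2 and 12.5 CPM, with ratios of 1.62 and 1.53, then 1.54 and 0.98. With free RNA subtracted from all members, its 7-day ratio turned to -2.33.

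**Figure D5:**
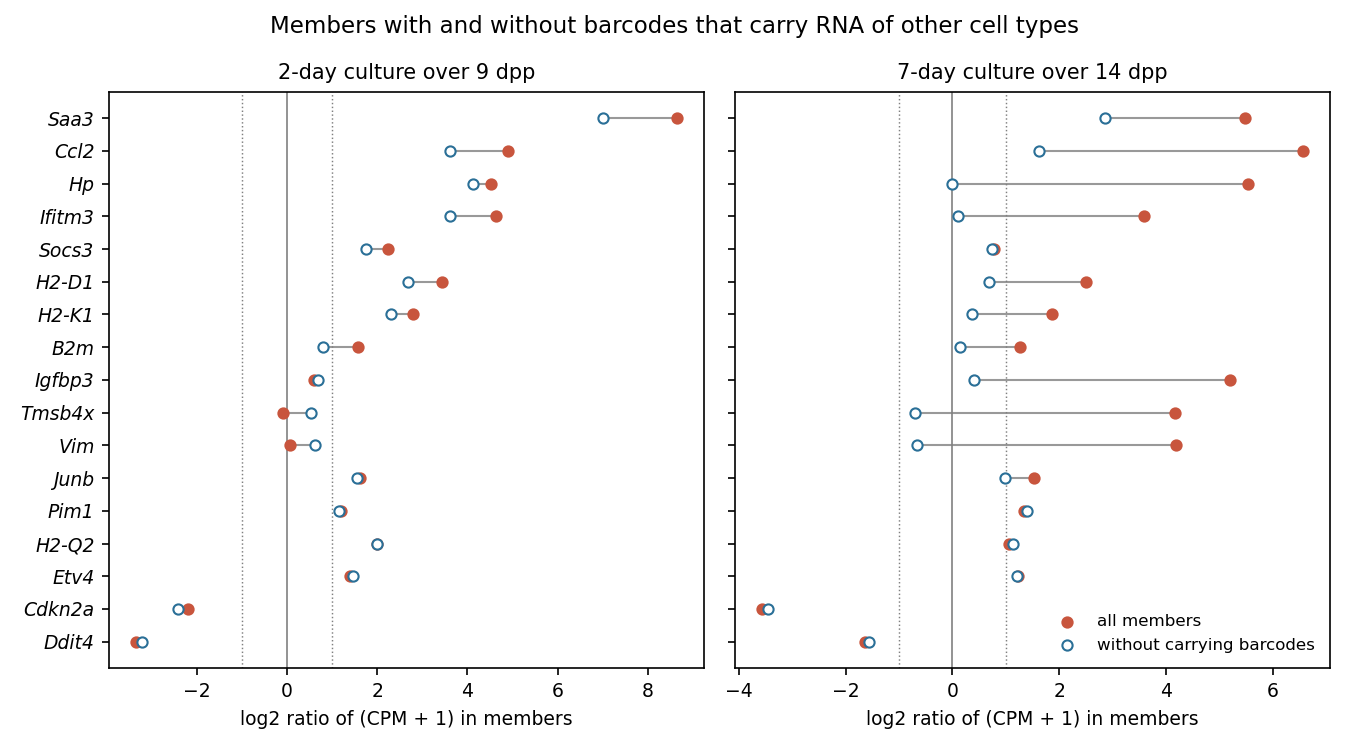
Log2 ratio of CPM plus 1 for the culture against in vivo pairs with all members (filled) and without the members carrying RNA of other cell types (open), with dotted lines at 1 and -1. The 14 dpp library had 0 UMIs of Ccl2 and Hp, so their 7-day points are set by the constant of 1. Saa3, Ccl2, Hp and the MHC class I genes move toward 0, while Pim1, H2-Q2, Etv4 and Ddit4 stay in place.

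Other large differences concerned genes with higher levels in barcodes without germ cell UMIs. Timp1, an inhibitor gene of matrix proteases, stood at 211, 45.1, 5.83 and 4.76 CPM in members and 1247, 226, 55.1 and 70.2 CPM in those barcodes. Ifitm3, an interferon-induced membrane protein gene, stood at 177, 86.9, 6.18 and 6.34 CPM against 2677, 971, 178 and 433 CPM. Their ratios of 4.96 and 4.63 for the 2-day pair went to 1.56 and 3.62 without the carrying members, and those of 3.00 and 3.58 for the 7-day pair to 0.26 and 0.11. Ctla2a, Gpihbp1 and Igfbp3 were the like genes of the 7-day pair. Igfbp3 had a ratio of 5.20 that went to 0.41, and Ctla2a had 6.51 (5.51 to 6.95) against 1 UMI at 14 dpp. Gpihbp1 had 0 UMIs at 14 dpp and was at least 132-fold higher in the 7-day culture. Without the carrying members Ctla2a and Gpihbp1 each had 0.514 CPM there. Among lower genes, Rps29, a ribosomal protein gene, stood at 1234, 1870, 2950 and 3410 CPM in members and 1797, 2901, 4912 and 4525 CPM in those barcodes. Tgif1, a transcription repressor gene, stood at 9.29, 32.2, 50.2 and 42.0 CPM. Osr2, Ren1 and Olfr889 had 0 UMIs in the 2-day members, and Hbb-bs, a globin gene, had 0 in both cultures. Defb19 and Cst12, genes of Sertoli cells, stood at 6.24 and 5.76 CPM in the 7-day culture and at 55.7 and 43.4 CPM at 14 dpp. Acta2, the smooth muscle actin gene, stood at 81.3, 17.3, 125 and 64.2 CPM, and Rnpep, a peptidase gene, at 2.32, 0.961, 22.2 and 13.3 CPM.

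Stress and energy genes differed little. Of 16 heat shock genes, 0 were higher and 2 lower for the 2-day pair (median -0.19) and 0 were past the fold for the 7-day pair (median -0.18). Of 20 glycolysis and hypoxia genes, 1 was lower for the 2-day pair (median -0.18), and of 21 oxidative phosphorylation genes 0 were past the fold in either pair (medians -0.13 and -0.07). Ldha, a glycolysis enzyme gene, stood at 13.9, 48.0, 48.3 and 46.0 CPM and was the lower one, but its 2-day ratio turned to 0.86 with a minimum of 2 marker UMIs. Of 16 amino acid stress and unfolded protein genes, 1 was lower for the 2-day pair (median 0.01). Of 16 oxidative stress genes, 1 was higher for the 2-day pair (median 0.18) and 0 were past the fold for the 7-day pair (median 0.06). Of 16 p53 and cell death genes, 1 was higher and 1 lower for the 2-day pair (median -0.10), and 2 were higher for the 7-day pair (median 0.17). Cdkn1a, a cell cycle inhibitor gene and one of the latter, stood at 13.9, 33.1, 11 and 11.9 CPM, and its 7-day ratio went from 1.41 to 0.12 without the carrying members.

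Cell cycle inhibitor genes, with 3 of 10 higher and 2 lower for the 2-day pair (median 0.33), had 1 of each for the 7-day pair (median 0.19). Of 7 DNA methylation genes, 0 were higher and 1 lower for the 2-day pair and 0 were past the fold for the 7-day pair. Dnmt3l, a cofactor gene of de novo methylation, was the lower one, at 2.32, 6.72, 7.21 and 5.55 CPM, from 1 UMI in the 2-day culture. Of 17 piRNA and germ granule genes, 1 was lower for the 2-day pair (median -0.15) and 0 were past the fold for the 7-day pair (median -0.05). Piwil4, which encodes a PIWI protein that carries piRNAs into the nucleus, was that gene, at 13.9, 20.7, 30.9 and 27.4 CPM, and its interval of -2.55 to 0.15 includes 0. Of 8 pachytene genes, 1 was higher in each pair (medians -0.25 and -0.27).

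Past the fold, age in vivo went with fewer differences than either culture pair, although more genes had intervals off 0. Between 14 and 9 dpp, 0.166% of the genes were higher past the fold (16 genes) and 0.882% were lower (85 genes), and 0 of 9 stem cell genes and 0 of 8 progenitor genes were among them. Intervals lay above 0 for 834 genes and below 0 for 885. Spata7, a cilium gene known from the retina and testis, stood at 32.5 CPM at 9 dpp and 513 CPM at 14 dpp, a log2 ratio of 3.94 (3.72 to 4.16). In the cultures Spata7 stood at 90.6 and 170 CPM. Zfp979 and Zfp984, zinc finger genes, were higher at 14 dpp too, at 4.58 and 25.0 CPM and at 4.69 and 16.1 CPM. Tpm3-rs7, a tropomyosin-related sequence, stood at 69.7, 61.0, 77.3 and 3.77 CPM and was as low at 14 dpp in barcodes without germ cell UMIs, with 57.3, 50.8, 72.6 and 5.89 CPM. Il11 was among the lower genes, with a ratio of -1.09 (-1.27 to -0.90).

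The other genes named as higher at 14 dpp were Rasip1, Ankrd9, Zfp839, Stk10, Enox1, Lhx2, Tmem74b and AW554918, with ratios from 1.02 to 1.37. Those named as lower were Cpsf4l, Phkg1, Snhg9, Bc1, H1fx, Trf, Golt1b, Lepr and Kctd6, with ratios from -1.87 to -1.06.

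Between the 7-day and the 2-day culture, 7.54% of the genes were higher past the fold (727 genes) and 3.34% were lower (322 genes), in the comparison with the shallow 2-day members. Of 8 progenitor genes 4 were higher in the 7-day culture and 0 were lower, while 0 of 9 stem cell genes were past the fold. Neurog3 had a log2 ratio of 2.77 (0.27 to 4.82) and Lin28a of 1.14 (0.10 to 2.29). Ramp3, a receptor-modifying protein gene, stood at 6.97 and 56.2 CPM in the 2-day and 7-day cultures, and Sdc4, a proteoglycan gene of spermatogonia, at 318 and 664 CPM. Insig1, Msmo1 and Egr2 were lower in the 7-day culture, with ratios of -1.39, -1.34 and -1.93. Fbxo32, a ubiquitin ligase gene, stood at 30.2 and 102 CPM, and Bhlhe41, a transcription repressor gene, at 92.9 and 32.2 CPM. Cdk2, the kinase gene of S phase entry, stood at 86.0 and 33.1 CPM. Rpl22l1, a ribosomal protein gene, stood at 2688, 1269, 2209 and 1909 CPM, so the 7-day culture was the lowest library.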

How the data were processed

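The deposited matrices hold raw counts of UMIs per gene and barcode, made with Cell Ranger 3.0.2 and the mm10 build per the submitters' processing notes, with 31053 gene identifiers under 31017 symbols. The libraries were made with the 10x 3′ kit per the labels' protocols. How the cells were called before deposit is not given in the sources used here. The members and the gene lists were chosen with earlier results of these data known. Counts were summed over member cells, scaled to CPM and compared as log2 ratios with a constant of 1, in genes that had 100 UMIs or more over all members. Limits of CPM are exact Poisson, limits of shares exact Clopper-Pearson and those of share ratios Katz, all at 95%. Limits of a ratio join the outer limits of both CPMs. A fold against 0 UMIs uses a floor of 3 UMIs per library.

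Doublet calls from Scrublet (scanpy 1.11.5, expected rate 6%) were removed only as an alternative, and they held 3, 4, 29 and 13 members. Thinning drew 2000 UMIs per cell, and the rule was then applied to the drawn UMIs. For the shares it left out 374, 83, 25 and 53 germ-gated cells below that depth. The free RNA estimate scaled the profile of all deposited barcodes of a library to the stroma, myoid and Leydig markers in members. Named genes were, for each comparison, the 12 higher and 12 lower genes past the fold by the bound nearest 0 with a member level at or above that in barcodes without germ cell UMIs, and the first 5 that failed this. From each list the largest ratios were named, and against other germ-gated cells the 15 highest. A pair of genes that this rule named are not reported here, and the retinoic acid list is counted without 1 of them. Gene positions came from GENCODE M21 and promoters from RefSeq. TMM factors came from edgeR 4.0.16. The summing and ratio code was tested on simulated data. Each group was 1 library, so no test between groups was run.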

Additional observations from a re-analysis of the deposited data

Results flagged for a closer look

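A pair of genes stood out because the culture libraries lay on opposite sides of the in vivo library in the 2 pairs. Clu, a secreted chaperone gene abundant in Sertoli cells, had log2 ratios of 1.32 for the 2-day pair and -1.79 for the 7-day pair. Its levels in members were 188, 17.8, 74.7 and 63.8 CPM, and barcodes without germ cell UMIs had 2943, 1880, 3425 and 3119 CPM. Without the 1 barcode that held the most Clu UMIs in the 2-day culture, the 2-day ratio was -0.29. No barcode was left out of the in vivo library of that pair, so this step worked against the culture side only. Spata7 had log2 ratios of 1.45 and -1.59 for these pairs, with 90.6, 170, 32.5 and 513 CPM in members and 137, 127, 46.5 and 473 CPM in the other germ-gated cells. With 1 library per group the difference between the pairs was not tested for either gene.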

How the results depend on the processing

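No paired analysis was possible because each group was 1 library. The share ratio of the 2-day culture over 9 dpp was -2.32 with a minimum of 2 marker UMIs and -4.32 with 5, and it kept its direction under all 8 alternatives tried for it. Counts of genes past the fold depended on depth and filters, and the 8 counts are given in the order 2-day pair higher and lower, 7-day pair higher and lower, 14 over 9 dpp higher and lower, 7-day over 2-day culture higher and lower. They were 22, 61, 4, 13, 2, 3, 53 and 33 after thinning each cell, where fewer genes had enough UMIs. They were 92, 208, 60, 45, 2, 23, 137 and 54 with a constant of 10, then 753, 1926, 448, 423, 64, 233, 1680 and 877 with at least 20 UMIs per gene, and 51, 183, 25, 44, 3, 20, 129 and 37 with at least 500. With a minimum of 5 marker UMIs the 2-day pair had 607 and 1284 and the culture comparison 1306 and 539, and with a minimum of 2 the culture comparison had 477 higher genes. Subtracting free RNA gave 65 higher genes for 14 over 9 dpp. Leaving out the members carrying RNA of other cell types, chosen after seeing the data, gave 65 higher genes in the 7-day pair, and 83 with free RNA subtracted as well. TMM factors and median of ratios moved no count by more than 1.5 times. With each cell thinned before the rule, 22 of the 36 gene ratios that had enough UMIs fell outside their main limits. So did 10 of 72 list medians, judged by the median width of their genes' limits.

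Single genes turned direction under some alternatives, and the cause was not tested. In the 2-day pair with a minimum of 2 marker UMIs, Aldh1a1 was 0.79, Ldha 0.86, Meioc 0.53 and Rec8 0.61. With a minimum of 5 in that pair, Bik was -0.084, Cdkn2d -0.43, Clu -0.097, Rrm2 -1.10 and Tagln -0.75. With Scrublet calls removed, Clu was -0.11 in that pair and Timp1 was 1.10 in the 7-day over the 2-day culture. With free RNA subtracted, the 2-day pair gave B2m -0.55, H2-K1 -0.30, Hp -0.58 and Saa3 -1.01, the 7-day pair gave Junb -2.33, and the culture comparison gave Saa3 3.93. Without the carrying members, Jun was -0.38 in the 7-day pair, and Igfbp3 -0.35, Tmsb4x -0.89 and Vim -1.19 between the cultures. With free RNA subtracted as well, the 7-day pair gave Amhr2 0.53, Apoe -1.03, B2m -0.049, Igfbp3 -0.26, Jun -2.46, Junb -1.57 and Saa3 -0.24, the 2-day pair gave Saa3 -0.98, and the culture comparison gave Igfbp3 -0.37. The 2-day members held the fewest UMIs, with a floor of 6.97 CPM against 0.343 CPM at 9 dpp, so low genes there were not detectable rather than absent.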

Other observations

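The free RNA estimate came to 10.1%, 6.54%, 10.9% and 7.75% of member UMIs with all members. Without the members carrying RNA of other cell types it came to 2.91%, 1.96%, 2.82% and 3.18%. Its profile was that of all deposited barcodes, germ cells included, so these values are not shares of RNA from other cell types. The barcodes left out held 8.48%, 6.59%, 5.93% and 2.59% of member UMIs. The other germ-gated cells had 1554, 32.1, 1.40 and 1.22 CPM of Saa3, against 813, 52.4, 1.03 and 0.198 CPM in members.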
